A study of Mus musculus with 9 samples.

Results

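The genes described here encode ligands, receptors and latent binders of the transforming growth factor beta (TGF-beta) system, measured in RNA of aortic endothelium, the cell sheet that faces the blood, from the thoracic aorta of mice. They are the ligands Tgfb1, Tgfb2 and Tgfb3, the receptors Tgfbr1, Tgfbr2, Tgfbr3 and Eng, and the latent binding proteins Ltbp1, Ltbp2 and Ltbp3. The members were chosen by symbol: each lies on 1 transcript cluster (the array's unit of 1 transcribed locus) that names no other gene, so 10 of 30142 named genes are described. The study compared mice made to lose 3 transcription factors of the MEF2 family in endothelium (ACDiEKO) with control littermates, on 4 control and 5 ACDiEKO arrays with 1 aorta of 1 female mouse each. Mice of both groups carried floxed alleles (f/f) of Mef2a, of Mef2c and of Mef2d, and received 5 daily tamoxifen injections from 10 weeks of age. ACDiEKO mice also carried Cdh5-CreERT2, a tamoxifen-dependent recombinase driven by the VE-cadherin promoter, which the controls lacked. Recombinase and loss of MEF2 factors are thus confounded by the design, and their effects cannot be told apart. The harvest is placed 7 days after the first injection in the series text and 14 days in the sample protocols, and is not settled here. RNA was taken by flushing lysis reagent through the aortic lumen.

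TGF-beta ligands are secreted in a latent form, held by their own propeptide and tethered to the matrix by latent TGF-beta binding proteins. Integrins, thrombospondin and proteases release the active dimer, which binds TGFBR2, and TGFBR2 then phosphorylates TGFBR1 or, in endothelium, also the receptor ACVRL1. TGFBR3 (betaglycan) and endoglin (Eng) are coreceptors without kinase activity; betaglycan is known for presenting TGF-beta2 and endoglin for its role in vascular development. The receptors signal through SMAD2 and SMAD3, or through SMAD1 and SMAD5, to the nucleus. In the vessel wall the system is known for its part in matrix production and in the transition of endothelial cells towards a mesenchymal state.

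The 250 bases before the RefSeq start are shown for the 2 members with the largest rises, Tgfb2 and Eng, for the ligand Tgfb1, which did not pass the test, and for Ltbp2. They come from RefSeq (GRCm38.p6), which holds such a window for 8 of the 10 members, and run 5′ to 3′ on the gene's strand. Capitals mark, on either strand, the motif matches named in the next paragraph.
Tgfb2 (chr1:186705990-186706239, minus strand): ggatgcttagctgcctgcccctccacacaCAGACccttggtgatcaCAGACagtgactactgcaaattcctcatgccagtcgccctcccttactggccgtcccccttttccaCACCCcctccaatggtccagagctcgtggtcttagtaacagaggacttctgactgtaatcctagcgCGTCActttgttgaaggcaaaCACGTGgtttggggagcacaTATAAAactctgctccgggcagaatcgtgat
Tgfb1 (chr7:25686752-25687001, plus strand): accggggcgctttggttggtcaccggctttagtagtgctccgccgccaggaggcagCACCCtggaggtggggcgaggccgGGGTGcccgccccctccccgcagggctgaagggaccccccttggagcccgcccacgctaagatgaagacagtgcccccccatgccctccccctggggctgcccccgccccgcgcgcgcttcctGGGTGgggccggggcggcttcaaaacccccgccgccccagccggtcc
Eng (chr2:32646345-32646594, plus strand): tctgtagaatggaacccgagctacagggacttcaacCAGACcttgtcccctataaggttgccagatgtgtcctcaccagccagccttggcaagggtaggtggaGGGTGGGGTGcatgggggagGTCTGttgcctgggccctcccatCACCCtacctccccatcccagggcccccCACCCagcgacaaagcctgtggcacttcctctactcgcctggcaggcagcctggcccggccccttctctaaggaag
Ltbp2 (chr12:84876492-84876741, minus strand): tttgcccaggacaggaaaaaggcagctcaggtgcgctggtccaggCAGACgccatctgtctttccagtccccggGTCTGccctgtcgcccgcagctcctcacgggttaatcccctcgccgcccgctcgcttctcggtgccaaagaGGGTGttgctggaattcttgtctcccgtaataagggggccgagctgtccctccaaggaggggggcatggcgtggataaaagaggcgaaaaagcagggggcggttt

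Motifs were searched on both strands, and shares refer to the 250 bases before the start in 32851 RefSeq windows. Tgfbr1 and Ltbp1 have a pair of windows each, and a match in either counted for the gene. The Tgfb2 window holds TATAAA starting at position -31 from the gene start (in 12.4% of windows), CACGTG at -51 (6.02%) and CGTCA at -72 (17.8%). None of these 3 motifs, which were added after the sequence was seen, is in the Tgfb1, Eng or Ltbp2 window. The KLF motif CACCC occurs in the windows of all 8 members that have one (52% of all windows), 4 times in that of Eng, and the SMAD motif GTCTG in those of 7 members (42.2%), not in that of Tgfb1. The full site TGACGTCA, which contains CGTCA on both strands, is in that of Ltbp1 and of no other member (1.55%). The MEF2 motif (2.92% of windows), the CArG box (1.47%) and the TEAD motif GGAATG (12.6%) are in none of the members' windows. A match is a string of letters, not a measured binding site. The windows differ in composition, with 53.6% G and C in Tgfb2, 75.2% in Tgfb1, 62.4% in Eng and 61.6% in Ltbp2, against a median of 52.4%.

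Values are log2 units of the deposited array signal and are compared between groups for 1 gene at a time, since levels of different probes cannot be set against each other. ACDiEKO replicates 1 and 2 carry different animal numbers in their titles but gave almost one set of values. Their difference had a robust SD of 0.0888, and the other 15 pairs within a group had 0.257 to 0.358. Their mean was used as 1 sample, which left 4 samples in each group. The test was limma over 16407 genes with Benjamini-Hochberg adjustment, two-sided, with calls at adjusted p below 0.05, and adjusted p-values are from it unless another test is named. The 95% intervals are not adjusted. The floxed genes themselves were not lower: Mef2a differed by 0.12 (adjusted p = 0.441), Mef2c by 0.06 (0.66) and Mef2d by 0.23 (0.111), each read over the whole transcript, so these values do not check the labels. The mean over 11 endothelial markers was 12.78 to 13.17 in control and 12.53 to 13.09 in ACDiEKO samples. Single markers averaged from 6.48 (Robo4) to 17.60 (Pecam1) in control, and some moved between the groups, as given further on. Array medians were 6.17 to 6.23 in control and 6.13 to 6.15 in ACDiEKO, and the number of arrays limits the precision.

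In ACDiEKO aortas, Tgfb2, Eng and Ltbp2 rose and Tgfb3 fell, while the other 6 members did not pass the test. Tgfb2 moved most, by 4.84 log2 units, and Eng by 1.53. All 10 members passed the filter on dim genes, and 4 of the 10 (40%) were called, against 16.2% of all tested genes. In the higher direction this was 3 members, against 8.92% of tested genes, and in the lower direction 1 member, against 7.33%. The values of the groups did not overlap in 5 members (23% of tested genes), of which 4 were higher (12%). A called difference of at least 1 was seen in 2 members, Tgfb2 and Eng (5.33%). The median difference of the members was 0.17, and that of all tested genes -0.03. Centring the arrays moved the share of rises among all called genes from 54.9% to 65.9%, and quantile normalization to 65.5%; no member changed sign under either.

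**Figure D1:**
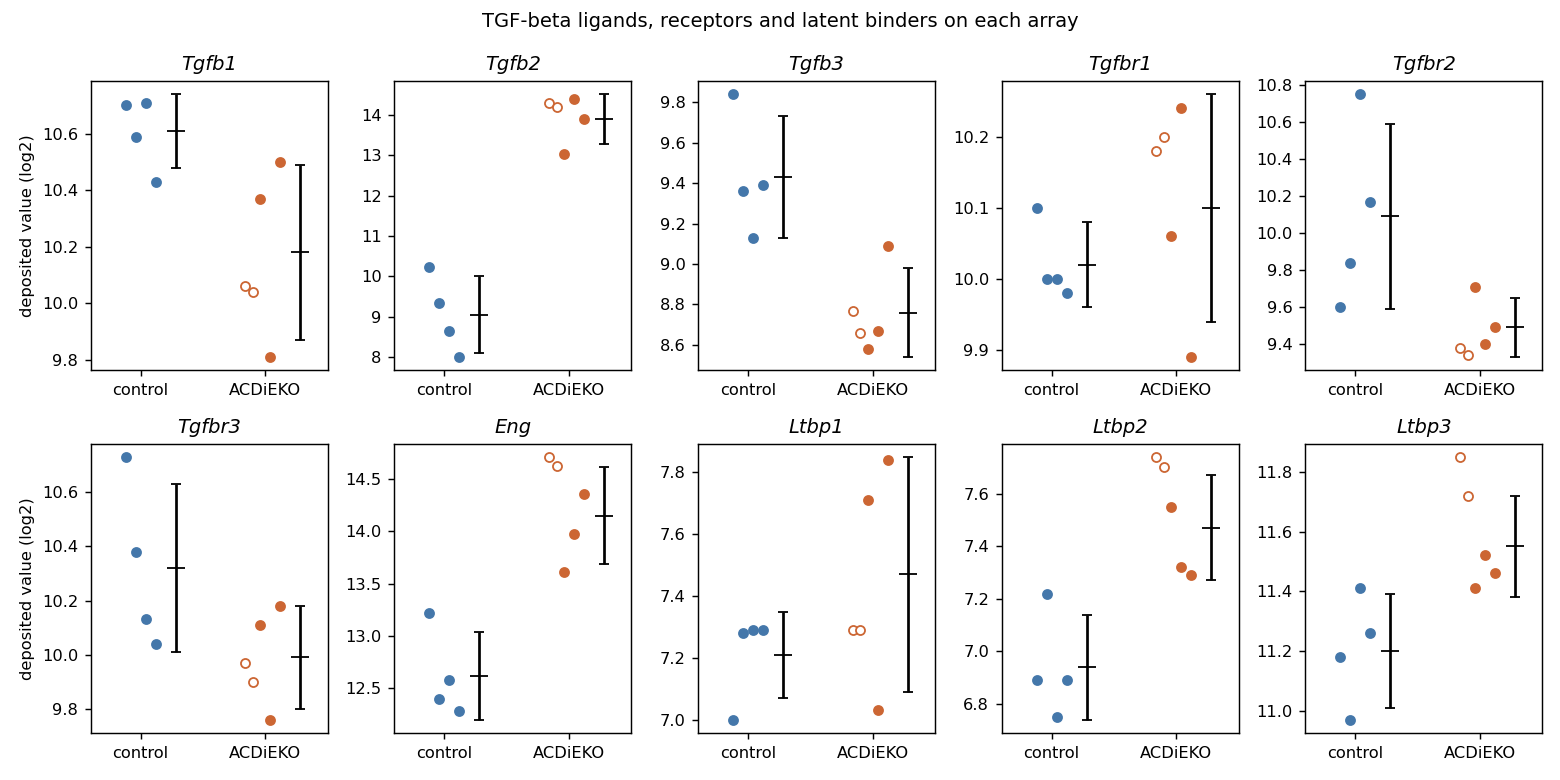
Deposited values (log2, vertical axes) of the 10 members on each array, with control in blue and ACDiEKO in orange; open circles are ACDiEKO replicates 1 and 2, which were averaged, and black marks are the mean and SD of 4 samples a group. Tgfb2 lies well apart between the groups, and Eng by less, with the highest control at 13.22 and the lowest ACDiEKO array at 13.61. The groups overlap in Tgfb1, Tgfbr1, Tgfbr2, Tgfbr3 and Ltbp1.

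Among the ligands, Tgfb2, the isoform studied for its part in heart valve and outflow tract formation, read 10.24, 9.33, 8.65 and 8.0 in control replicates 1 to 4. It read 14.31, 14.19, 13.03, 14.41 and 13.90 in ACDiEKO replicates 1 to 5. The lowest ACDiEKO array lay above the highest control array. Control samples averaged 9.05 ± 0.96 and ACDiEKO samples 13.90 ± 0.62 (SD, n = 4 and 4), a difference of 4.84 (95% interval 3.71 to 5.98, limma adjusted p = 0.000926). Of 16407 tested genes, 2 had a larger rise. In such bulk RNA, more cells of a type and more RNA per cell cannot be told apart. The controls spread widely, and without the 2 controls whose animal numbers in the titles lie apart from the other 7 (replicates 3 and 4, the lowest values), the difference was 4.11 (adjusted p = 0.016).

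Tgfb3, the third isoform, read 9.84, 9.36, 9.13 and 9.39 in the controls. In ACDiEKO it read 8.77, 8.66, 8.58, 8.67 and 9.09. The groups did not overlap, but ACDiEKO replicate 5 came close to control replicate 3. Tgfb3 fell by 0.67 (95% interval -1.05 to -0.28, adjusted p = 0.0315). The call ended without control replicate 2 (adjusted p = 0.062), control replicate 4 (0.0697), ACDiEKO replicate 3 (0.0764) or ACDiEKO replicate 4 (0.0873).

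Tgfb1, the broadly expressed ligand, read 10.70, 10.59, 10.71 and 10.43 in the controls and 10.06, 10.04, 10.37, 9.81 and 10.50 in ACDiEKO. The groups overlapped through ACDiEKO replicate 5. The difference of -0.43 (95% interval -0.78 to -0.07) had limma adjusted p = 0.0996 and did not pass. Within ACDiEKO, Tgfb1 was lowest in replicates 1, 2 and 4, the arrays with the highest Tgfb2. Replicates 1 and 2 count as 1 sample. Among the controls, replicate 4 was lowest in both genes.

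**Figure D2:**
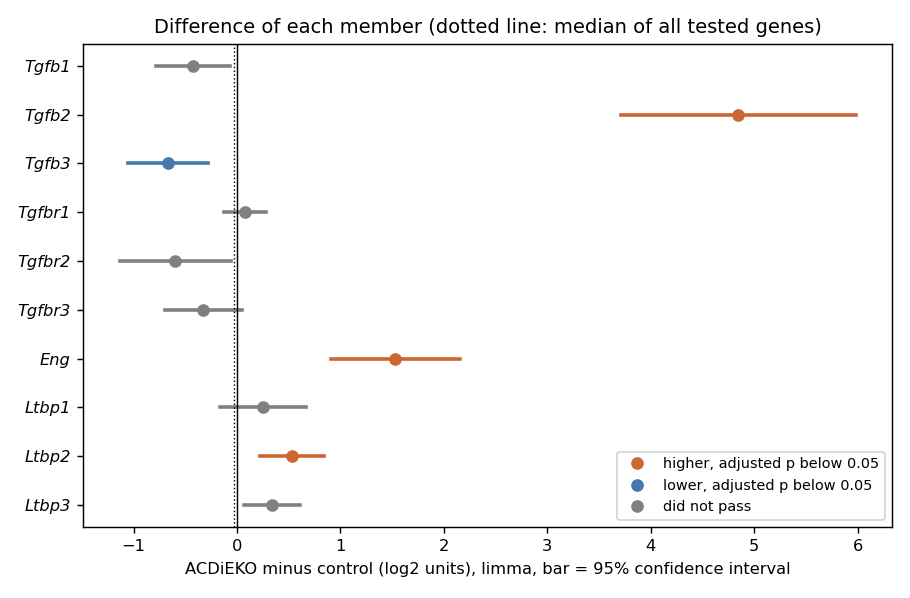
Difference of each member (ACDiEKO minus control, log2 units) with its 95% confidence interval from limma, 4 samples against 4; orange passed as higher, blue as lower and grey did not pass. Tgfb2 at 4.84 stands far to the right of the other members, which lie between -0.67 and 1.53.

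Of the receptors, only the coreceptor endoglin passed. Eng read 13.22, 12.40, 12.58 and 12.28 in the controls. It read 14.71, 14.62, 13.61, 13.97 and 14.36 in ACDiEKO. The groups did not overlap, and control replicate 1 came closest, as it also did for Tgfb2. Control samples averaged 12.62 ± 0.42 and ACDiEKO samples 14.15 ± 0.46 (SD, n = 4 and 4), a difference of 1.53 (95% interval 0.91 to 2.16, adjusted p = 0.00848). A larger rise was seen in 251 of 16407 tested genes. Without control replicates 3 and 4 together the call ended (1.34, limma adjusted p = 0.0847).

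Smooth muscle markers moved with genotype beside Tgfb2 and Eng. The mean of 12 markers was 9.20, 8.74, 8.22 and 8.37 in control replicates 1 to 4 and 10.38, 10.35, 9.53, 10.45 and 9.76 in ACDiEKO replicates 1 to 5, so the groups did not overlap. Of 11 tested, 7 rose (8.92% of all tested genes did), among them Tagln, Acta2 (3.19) and Smtn (2.04). The other 4 did not pass, among them the defining contractile genes Myh11 (-0.04) and Cnn1 (-0.27). Tgfb2 was highest in the array with the highest marker mean within each group, control replicate 1 and ACDiEKO replicate 4, and ACDiEKO replicate 3 was lowest in both measures. Eng was highest in control replicate 1 and, in ACDiEKO, lowest in replicate 3. In ACDiEKO replicate 4, with the highest marker mean, Eng was second lowest (13.97), so it did not follow the markers there. Without control replicates 3 and 4 together, the calls of all 7 ended, with Tagln at 2.85, Acta2 at 2.27 and Smtn at 1.60 (adjusted p = 0.0601 to 0.199 over the 7). The part of these markers in the results for Tgfb2 and Eng was not tested.

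**Figure D3:**
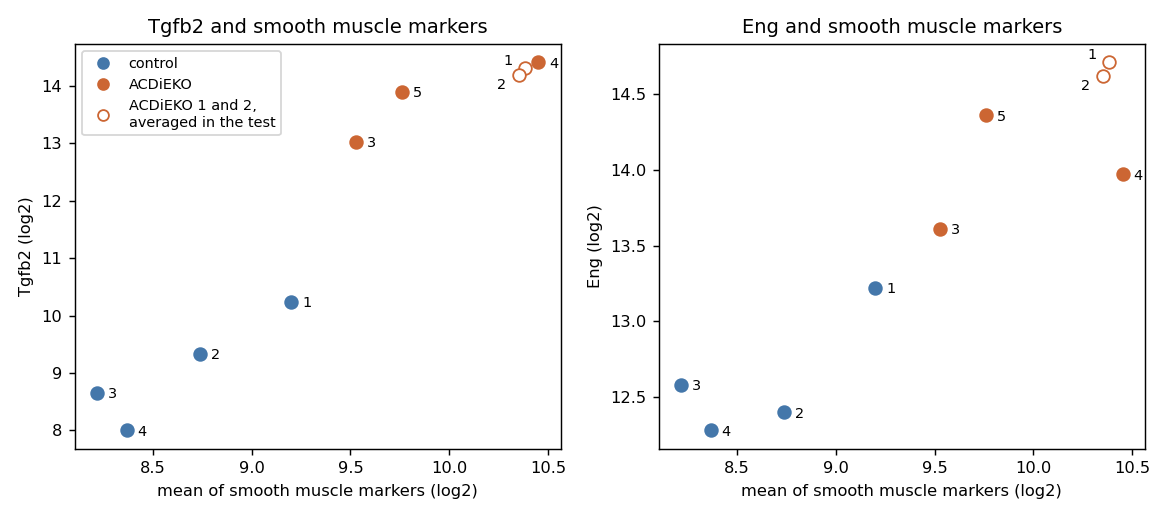
Tgfb2 (left) and Eng (right) on each array (log2, vertical axes) against the mean of 12 smooth muscle markers (log2, horizontal axes), with replicate numbers beside the points; control blue, ACDiEKO orange, open circles the near-identical replicates 1 and 2. The control arrays lie between 8.22 and 9.20 and the ACDiEKO arrays between 9.53 and 10.45 on the horizontal axes, and both genes are higher in the second set.

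The signaling receptors did not pass. Tgfbr1 (ALK5), the type I kinase, read 10.10, 10.00, 10.00 and 9.98 in the controls and 10.18, 10.20, 10.06, 10.24 and 9.89 in ACDiEKO. Its difference of 0.08 had a 95% interval of -0.13 to 0.28 (adjusted p = 0.586), the smallest difference of the 10 members. Tgfbr2, the type II kinase that binds the ligand, read 9.60, 9.84, 10.75 and 10.17 in the controls and 9.38, 9.34, 9.71, 9.40 and 9.49 in ACDiEKO. The groups overlapped only through ACDiEKO replicate 3 and control replicate 1. The difference of -0.60 (95% interval -1.13 to -0.06) had limma adjusted p = 0.116, and it was -0.23 without control replicates 3 and 4, which held the highest values. Tgfbr3, the coreceptor betaglycan, read 10.73, 10.38, 10.13 and 10.04 in the controls and 9.97, 9.90, 10.11, 9.76 and 10.18 in ACDiEKO. Its difference was -0.33 (95% interval -0.70 to 0.05, adjusted p = 0.206), so the interval still holds a fall as large as that of Tgfb3.

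The latent binding proteins among the members all had positive differences, of which that of Ltbp2 passed. Ltbp4, which is not a member, had a negative difference and is described with the pathway lists. Ltbp2, a matrix protein that, unlike its relatives, is not known to bind latent TGF-beta, read 6.89, 7.22, 6.75 and 6.89 in the controls. It read 7.74, 7.70, 7.55, 7.32 and 7.29 in ACDiEKO. The groups did not overlap, with control replicate 2 just below ACDiEKO replicate 5. Ltbp2 rose by 0.53 (95% interval 0.22 to 0.84, adjusted p = 0.0312). The call ended without control replicate 1 (adjusted p = 0.0711), 3 (0.0766) or 4 (0.0778), or without ACDiEKO replicate 3 (0.0737) or 4 (0.0507).

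Ltbp3, which binds latent TGF-beta and is known for its role in bone and teeth, read 11.18, 10.97, 11.41 and 11.26 in the controls and 11.85, 11.72, 11.41, 11.52 and 11.46 in ACDiEKO. At 2 decimals the groups met at 11.41, and before rounding they did not overlap. The difference of 0.34 (95% interval 0.07 to 0.61) had limma adjusted p = 0.0887. Under quantile normalization it was 0.40 and passed (adjusted p = 0.0356). Ltbp1, the first described member of the family, read 7.00, 7.28, 7.29 and 7.29 in the controls and 7.29, 7.29, 7.71, 7.03 and 7.84 in ACDiEKO. Its difference was 0.25 (95% interval -0.16 to 0.67, adjusted p = 0.366). The deposited Ltbp1 value was the same to every digit on 4 arrays of both groups, which occurred in 19.2% of 65956 transcript clusters and in no other member, so its spread is not a plain measure of replicate error.

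Whether members of 1 role differed from each other in their change was tested on the within-sample difference of 2 members, with an exact two-sided permutation test of 4 samples against 4 over 12 pairs. The smallest p this design can give is 0.0286. Tgfb2 minus Tgfb1 averaged -1.55 ± 0.88 among the controls and 3.71 ± 0.86 among ACDiEKO samples (SD, n = 4 and 4), a shift of 5.27 (exact p = 0.0286, adjusted p = 0.0686). Tgfb2 minus Tgfb3 shifted by 5.51, with the same p-values, whereas Tgfb1 minus Tgfb3 shifted by 0.24 (exact p = 0.286, adjusted p = 0.429). Only the shift is read here, since the sign of a difference between 2 probes has no meaning by itself.

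Eng shifted against each of the other receptors, by 1.46 against Tgfbr1, 2.13 against Tgfbr2 and 1.86 against Tgfbr3, each with exact p = 0.0286 and adjusted p = 0.0686. These 5 pairs had no overlap between the groups, and 7 pairs at the smallest p would have been needed for any to pass the adjustment over 12. Tgfbr1 minus Tgfbr2 shifted by 0.67 (exact p = 0.0857) and Tgfbr2 minus Tgfbr3 by -0.27 (exact p = 0.514). Among the binders no pair came near the smallest p: Ltbp1 minus Ltbp2 shifted by -0.28 (exact p = 0.371), Ltbp1 minus Ltbp3 by -0.09 (0.743) and Ltbp2 minus Ltbp3 by 0.19 (0.4).

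**Figure D4:**
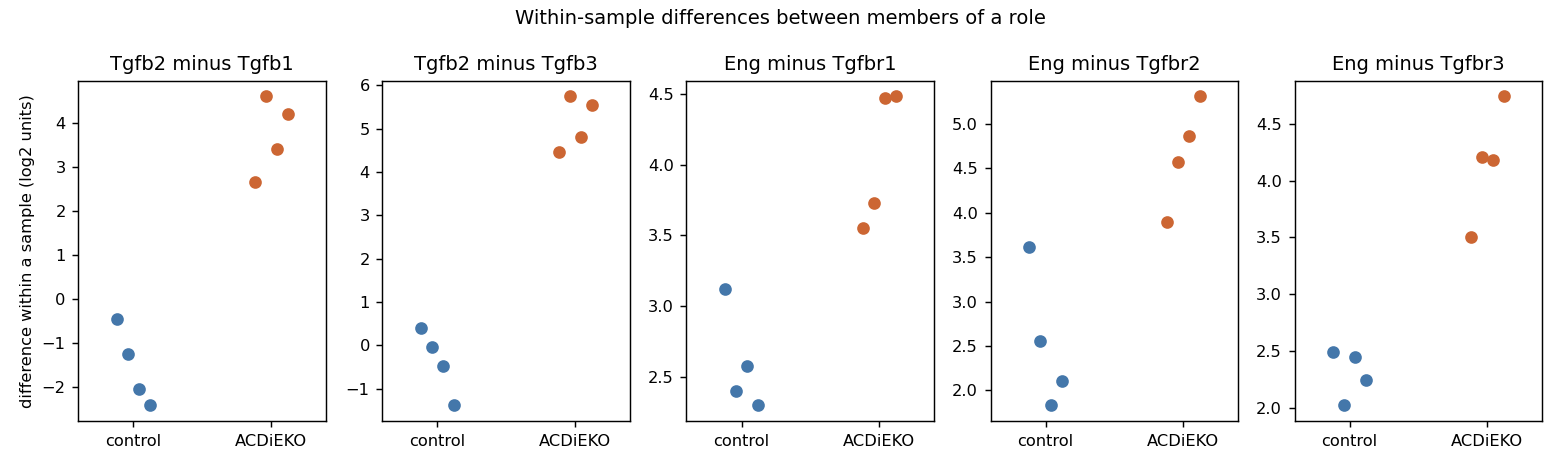
Within-sample differences (log2 units, vertical axes) for the 5 pairs at the smallest possible p, with 1 point for each of the 4 control (blue) and 4 ACDiEKO (orange) samples. In each panel every ACDiEKO sample lies above every control sample, and the shift is 5.27 and 5.51 for the pairs with Tgfb2 and 1.46 to 2.13 for the pairs with Eng.

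By Pearson correlation over the 8 samples, the 3 tested genes whose pattern was most like that of Tgfb2 were 1810006J02Rik (r = 0.997), Glis3 (0.996), a zinc finger transcription factor, and Rasl11a (0.989), a Ras-like protein. With group means removed, their r with Tgfb2 was 0.97, 0.95 and 0.95. These values come from the same 8 samples by which the 3 genes were picked, so they are no separate support. The 3 genes rose by 3.31, 3.30 and 1.84. For Eng the 3 nearest were Gm6180 (r = 0.990), Smarcb1 (0.988), a chromatin remodelling subunit, and Ptbp1 (0.981), an RNA splicing regulator, with differences of 1.04, 0.32 and 0.70. These are descriptions over 8 samples that fall into 2 groups.

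The rest of the pathway was read from 7 lists of other genes, in which 73 of 89 genes on the array were tested. Of these, 13 passed as higher and 9 as lower, with a median difference of -0.01. Over all tested genes, 8.92% passed as higher and 7.33% as lower, to be read beside each list below. In latency and ligand processing, 2 of 6 tested genes fell and 4 did not pass (median 0.16). Pcsk5, a proprotein convertase, fell from 8.90 ± 0.22 to 7.67 ± 0.30 (SD, n = 4 and 4, adjusted p = 0.00309). Ltbp4, the remaining latent binding protein, fell by 0.47 (adjusted p = 0.0362; 0.0658 after median centring), and the call ended without control replicate 1, 2 or 3 or without ACDiEKO replicate 3 or 4 (adjusted p = 0.0562 to 0.0975).

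Of 12 tested genes that act in the release of active ligand, 3 rose, 2 fell and 7 did not pass (median 0.26). Thbs1, thrombospondin 1, rose from 15.86 ± 1.07 to 18.22 ± 0.25 (adjusted p = 0.0136), and the plasminogen activator urokinase, Plau, rose from 6.52 ± 0.03 to 7.72 ± 0.36 (0.00317). The other plasminogen activator, Plat, fell by 1.11 (0.019), and the crosslinking enzyme Tgm2 fell by 0.83 (0.0407). The integrin subunit Itgb1 rose by 0.52 (0.0471). Leaving out 1 array ended the calls of Plat (adjusted p = 0.0527 to 0.0564 without control replicate 3 or 4 or ACDiEKO replicate 4), of Itgb1 (0.0685 to 0.121 without control replicate 1, 2 or 4 or ACDiEKO replicate 3 or 4) and of Tgm2 (0.0551 to 0.105 without control replicate 1, 3 or 4 or ACDiEKO replicate 4 or 5). After quantile normalization Itgb1 (0.064) and Tgm2 (0.0592) did not pass.

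Among receptor partners, 1 of 10 tested genes rose and 3 fell (median -0.16). Bambi, a pseudoreceptor that blocks TGF-beta signaling, fell from 10.43 ± 0.31 to 8.44 ± 0.44 (adjusted p = 0.00181). Acvrl1 (ALK1), the endothelial type I receptor that works with endoglin, fell from 12.48 ± 0.22 to 11.67 ± 0.11 (0.00402), in the opposite direction to Eng. The BMP type II receptor Bmpr2 fell by 0.41 (0.0195), and that call ended after quantile normalization (0.104) and when either control replicate 4 (0.0531) or ACDiEKO replicate 4 (0.0585) was left out. The activin receptor Acvr1b rose by 0.74 (0.0326), and its call ended without control replicate 2, 3 or 4 or ACDiEKO replicate 4 (adjusted p = 0.071 to 0.0843).

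Of the 8 SMADs, the signal carriers, 2 rose and 6 did not pass (median 0.01). Smad1 rose from 8.60 ± 0.11 to 9.17 ± 0.18 (adjusted p = 0.00938) and Smad2 from 10.10 ± 0.10 to 10.51 ± 0.13 (0.016). Over all tested genes, 5366 of 16407 had an unadjusted limma p below 0.05, to be read beside such counts here. None of 12 regulators of SMADs passed limma, and 0 had an unadjusted p below 0.05 (median -0.01): the ubiquitin ligase Wwp1 differed by -0.32 (adjusted p = 0.197) and the corepressor Ski by -0.17 (0.203). None of 4 tested ligand-binding proteoglycans passed limma, and 2 had an unadjusted p below 0.05 (median 0.27): decorin (Dcn), which binds TGF-beta in the matrix and is also in the fibroblast marker list, differed by 1.20 (adjusted p = 0.0617) and Aspn by -0.44 (0.128).

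Of 25 tested transcripts known to respond to TGF-beta, 7 rose, 2 fell and 16 did not pass (median -0.01). Ccn2, a matricellular factor, rose from 7.85 ± 0.39 to 11.08 ± 0.24 (adjusted p = 0.000295), Pdgfb, a growth factor for mural cells, by 3.05 (0.00227), and Edn1, the endothelin precursor, by 2.67 (0.00611). The actin-binding Tagln rose by 3.82 (0.00767). Tagln, Acta2 and Cnn1 are in this list and in that of smooth muscle markers. Klf10, an early TGF-beta response factor, fell from 8.79 ± 0.22 to 7.59 ± 0.38 (0.00623). Further genes were chosen after their values were seen: Smad7, the inhibitory SMAD induced by the pathway, differed by -0.01, the feedback gene Pmepa1 by -0.10, the corepressor Skil by -0.02, and the collagens Col1a1 by -0.01 and Col3a1 by -0.04, none of which passed. Other matrix genes of the list differed by more. Fn1 rose by 0.46 (limma adjusted p = 0.0129), and its call ended when the fit had a term for control replicates 3 and 4 (0.0669). Eln (-0.68, adjusted p = 0.077), Postn (-0.48, 0.157) and Col1a2 (-0.45, 0.0777) did not pass. Junb, Loxl2 and Zeb2 were in this list and were not analysed here. The 7 and 2 include Zeb1 (0.79) and Bhlhe40 (-0.69), whose calls ended without control replicate 2, 3 or 4 or ACDiEKO replicate 4 (adjusted p = 0.0706 to 0.0969 and 0.0573 to 0.0809). Without control replicates 3 and 4 together, the calls of Plat, Tgm2, Itgb1, Ltbp4, Bmpr2, Acvr1b, Smad1 (adjusted p = 0.085), Smad2 (0.0788), Tagln (0.0601), Acta2 (0.0681), Zeb1 (0.184) and Bhlhe40 (0.147) ended.

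**Figure D5:**
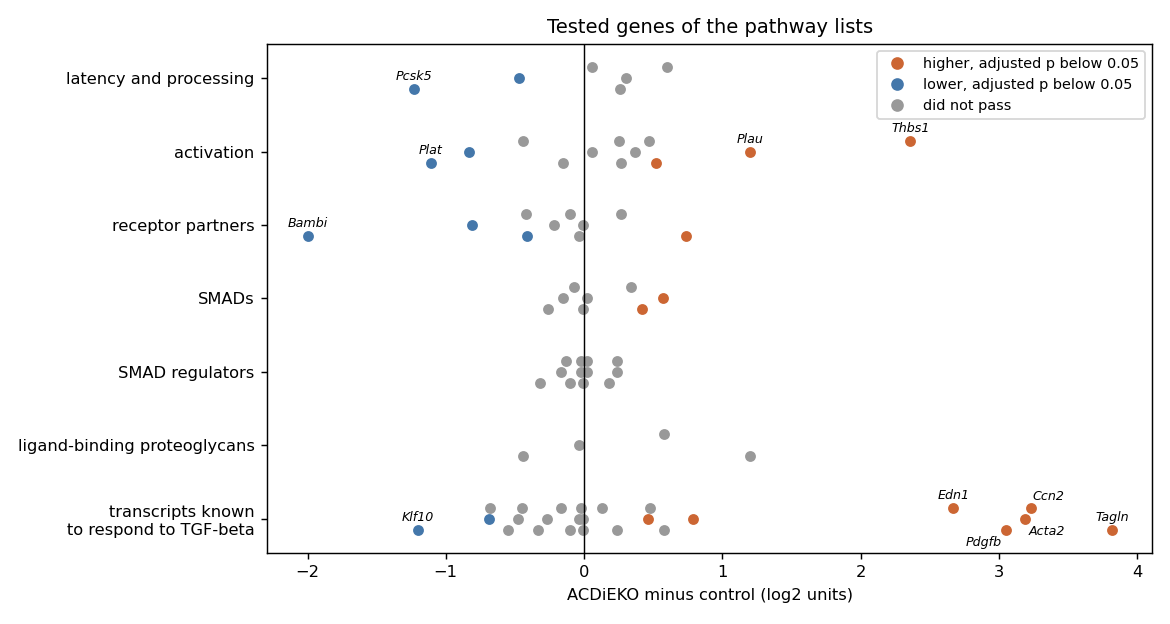
Difference of each tested gene of the 7 pathway lists (ACDiEKO minus control, log2 units, horizontal axis), with 1 point a gene; orange passed as higher, blue as lower and grey did not pass, and called genes that differ by more than 1 are named. SMAD regulators lie close to 0, while the response list runs from Klf10 at -1.20 to Tagln at 3.82.

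Of 11 tested endothelial markers, 2 rose and 3 fell, against 8.92% and 7.33% of all tested genes. Pecam1 fell by 0.37 (adjusted p = 0.0184, and 0.0666 after quantile normalization), and Cdh5 (0.25) and Vwf (-0.19) did not pass. The other called ones, named after their values were seen, were Emcn (3.72), Kdr (0.96), Cldn5 (-3.59) and Tek (-1.92). The call of Kdr ended without control replicate 1, 2 or 4 or ACDiEKO replicate 3 or 4 (adjusted p = 0.056 to 0.0777). Those of Tek (0.0542) and Pecam1 (0.0834) ended without control replicates 3 and 4 together. Of 9 fibroblast markers, 1 rose (Serpinf1 by 0.77, named after its value was seen) and 2 fell: Pi16 fell by 2.41 (adjusted p = 0.0086) and Gsn fell by 0.40 (0.0414, and 0.0751 after median centring). Leaving out 1 array ended the calls of Serpinf1 (adjusted p = 0.0587 to 0.107 without control replicate 3 or 4 or ACDiEKO replicate 4 or 5) and of Gsn (0.0787 to 0.103 without control replicate 1, 3 or 4 or ACDiEKO replicate 3 or 4). That of Pi16 ended without control replicates 3 and 4 together (0.0708). The fibroblast marker mean overlapped between groups (8.70 to 9.0 in control, 8.38 to 9.07 in ACDiEKO). None of 7 tested leukocyte markers passed limma, and 1 had an unadjusted p below 0.05 (Lyz2 differed by 1.43, Cd68 by 0.81 and Ptprc by 0.86), with means of 6.53 to 7.22 in control and 6.89 to 8.98 in ACDiEKO, the highest in ACDiEKO replicate 5. None of 6 fat markers passed limma (Ucp1 differed by -2.37, Fabp4 by -0.80 and Cidea by -0.61), none of 3 tested mesothelial markers (Upk3b by 1.36, Lrrn4 by 1.04, Krt19 by 0.98), and neither of 2 erythrocyte markers (Alas2 by -0.18, Slc4a1 by 0.10), with 0 unadjusted p below 0.05 in these 3 lists. Over all tested genes, 5366 of 16407 had an unadjusted limma p below 0.05. The fat marker mean ran from 8.75 to 11.46 in control and from 7.46 to 10.23 in ACDiEKO samples, and the mesothelial mean from 5.95 to 7.13 and from 6.28 to 8.43. All 5 tested cell division markers rose, among them Mki67 (5.68), Top2a (4.09) and Cdk1 (3.0), with means of 6.70 to 6.95 in control and 9.55 to 10.40 in ACDiEKO, and their part in the members' results was not tested.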

How the data were processed

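Per the labels, 5 ng of RNA from each aorta was amplified with the WT Pico protocol and hybridised to a Clariom D Mouse array. Deposited in log2, the values came from RMA, which the submitters' processing notes name without a version. RMA corrects background, normalizes arrays and summarises probes per transcript cluster. The values ran from 2.58 to 19.34 and so exceed the 16 bits of a scanner. The sources used here name no scaling step that would account for this, so differences are printed as log2 units and not as folds.

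Of 72688 features, 6732 array controls were left out. Of 65956 transcript clusters, 30604 had 1 symbol, 2146 several and 33206 none in the annotation used here. Symbols were updated to RefSeq (GRCm38) for 827 clusters, and the brightest cluster stood for a gene. Genes entered the test when 4 or more arrays were above the table's median (6.165). Groups were fitted with limma 3.58.1 (lmFit, eBayes) in R 4.3.3. A comparison of ACDiEKO and control was simulated in 5 runs over 16407 genes, with 200 genes altered. A change of 1 log2 unit was recovered in 77.2% of the altered genes, a change of 2 in 95%, and 5.27% of calls were false. The data gave 2666 calls, far more than were altered in the simulation, so these rates are not error rates of the calls given here. Since 2 control titles share the number 3, control replicate 4 here is the later of them.

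The members and lists were chosen with earlier results of these data known, and the averaging of the near-identical arrays was too. Named are the 10 members, up to 5 called genes of each pathway list with the smallest p (2 where none passed), the 3 brightest genes of each marker list, defining markers, and the 3 genes most like Tgfb2 and Eng. Pdgfra lies on a cluster with several symbols and was left out. Alternatives are given in the closing section. Figures were drawn with matplotlib 3.10.9.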

Additional observations from a re-analysis of the deposited data

Results flagged for a closer look

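The Ltbp1 value of control replicate 1 was far from the other controls for its group, at 7.00 against 7.28 to 7.29. The test looked at the gap between the most distant sample and its nearest neighbour in 20 groups of 4, of which chance flags about 1. The narrow range of the other 3 controls includes the identical deposited values described for this gene.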

How the results depend on the processing

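Under 23 alternatives (22 for Ltbp1 and Ltbp2, which the stricter filter left out) no member changed the sign of its difference, and Tgfb2 passed in all of them (4.11 to 5.24, adjusted p = 0.00017 to 0.016). Eng passed in all but 1 (1.34 to 1.73, adjusted p = 0.00282 to 0.0847), and Tgfbr1, Tgfbr2, Tgfbr3 and Ltbp1 passed in none. The call of Tgfb3 held in 15 of 23 (limma adjusted p = 0.0125 to 0.0873) and that of Ltbp2 in 12 of 22 (0.0122 to 0.188). Over all members, called or not, 204 alternative values stayed on the same side of the threshold, 19 lost the call and 5 gained it. The count of genes called, 2666 in the main setting, was 1035 at adjusted p below 0.01, 4046 below 0.1, 1737 without both near-identical arrays, 1108 without the 2 controls with animal numbers apart, 1693 when the fit had a term for those 2 controls, and 1682 to 2696 on leaving out 1 array, lowest without ACDiEKO replicate 4. The count of members higher was 1 without the 2 controls with animal numbers apart and 2 to 3 on leaving out 1 array. The count of members lower was 0 with no filter on dim genes, at adjusted p below 0.01, without both near-identical arrays and without those 2 controls, 2 below 0.1 and with all 9 arrays as samples, and 0 to 1 on leaving out 1 array. The added calls with 9 arrays were Tgfb1 (-0.45, adjusted p = 0.0468) and Ltbp3 (0.39, 0.0428). That setting counts the near-identical ACDiEKO replicates 1 and 2 as separate samples. The numbers in the titles do not pair the arrays (correlations of deviations -0.005, -0.145, 0.035 and 0.041). With that replicate number as a block and all 9 arrays, 2351 genes, 3 higher members and 1 lower member were called. The member counts were those of the main setting, in which 2666 genes were called. Against the unblocked fit of the same 9 arrays, however, the block ended the calls of Tgfb1 (0.092) and Ltbp3 (0.129). The 5 pairs at the smallest p all passed the adjustment with all 9 arrays as samples (5 of 12) and not in the main setting (0). Counting the near-identical arrays separately by itself allows a smaller exact p, so these passes add no evidence. On leaving out 1 array, the pairs were not tested and only their shifts were read. The shift of Tgfb2 against Tgfb1 was then 4.97 to 5.63 and that of Eng against Tgfbr3 1.77 to 2.08. Where a count moved, the cause was not tested, other than a different number of samples or another threshold by construction. The labels name no batch, and all ACDiEKO animals have numbers in 1 run.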
